A study of Mus musculus with 2 samples.

Results

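Lysosomes of macrophages break down the lipids and sugar chains of engulfed cells and membranes, and 7 genes of that process were followed in nuclei sorted from mouse mammary tumours. They were Psap, Npc2, Npc1, Lipa, Hexa, Gla and Neu1, chosen by symbol from the 32285 genes counted, and each symbol was found once. The 7 genes made up 14503 of the 7342649 unique molecular identifier counts (UMIs, each a distinct RNA molecule) in the 1812 nuclei kept. Tumour-associated macrophages (TAMs) were sorted from tumours of mice carrying the PyMT mammary oncogene, as cells positive for CD45, Vcam and F4/80 and negative for Ly6C, Ly6G, B220 and SiglecF. Their nuclei were then sorted as mCherry positive and CD11b negative, and RNA was counted with the 10x Genomics 3' kit.

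The labels name 2 samples, 1 for each genotype. One came from MYC-PyMT mice, which carry S100a8-cre and a Rosa26-LSL-MYC allele and so turn on MYC where the neutrophil-type S100a8 promoter has been active. The other came from control-PyMT mice, and the number of mice behind each is not given in the sources used here. Recipients of both genotypes, backcrossed to B6, had been irradiated when 7 weeks old and then received marrow of donors carrying Fcgr1-cre and the Rosa26LSL-H2B-mCherry/+ reporter, and no MYC allele is named for the donors. Both groups were put on a low protein diet 2 weeks later and kept on it for 6 weeks. Barcodes carry a well number, 1 or 2, that no label ties to a genotype, so the genotypes could not be compared and all nuclei were treated as 1 pooled sample. No p-value is given, since nuclei are not replicates, and intervals are exact 95% intervals that cover counting error only.

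Well 1 held 1383 barcodes with a median of 2487 UMIs, and well 2 held 455 with a median of 2834, with 9 barcode sequences found in both. The nuclei formed 15 clusters, numbered by size, which were built without the 7 genes and without 48 related genes described below. The wells stood apart in them: cluster 1 drew 377 of its 381 nuclei from well 1, and resident-like cluster 7 drew 115 of 117 from well 2. Of the clusters, 7 were macrophage-like (1106 nuclei) and 4 were epithelial-like (253 nuclei). The list of 11 macrophage markers summed to 5051 CPM (the usual scale on which a count is divided by all UMIs of the same nuclei) in macrophage-like nuclei, against 402 CPM in epithelial-like nuclei, with no marker of the list at 0 in either. The 11 epithelial markers summed to 1482 CPM in macrophage-like nuclei and 9967 CPM in epithelial-like nuclei, so the label of TAM nuclei holds for most nuclei but not all.

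Within the macrophage-like class, 4 clusters matched a state list. Cluster 5 (148 nuclei) was led by Gpnmb and Atp6v0d2, genes of lipid-laden macrophages. Cluster 2 (245 nuclei) had the inflammatory genes Nlrp3 and Il1b among its leading genes. Cluster 7 (117 nuclei) was resident-like, with Lyve1, F13a1 and Retnla leading, and cluster 14 (20 nuclei) was cycling. Clusters 1, 6 (139 nuclei) and 10 (56 nuclei) matched no state list. Il1r2 and Il1a were among the leading genes of cluster 6, and the chemokine gene Ccl5 and the interferon-induced gene Ifit2 led cluster 10. Cluster 4 (154 nuclei) stayed unnamed because monocyte and dendritic cell markers (Ccr2, Fn1 and Flt3) led it. Clusters 3 and 9 held 288 low-count nuclei rich in ribosomal protein and mitochondrially encoded RNA, and cluster 15 held 11 T cell-like nuclei.

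As background, the 7 products work at linked steps. Prosaposin (Psap) is cut in the lysosome into saposins, small proteins that lift sphingolipids out of membranes so that enzymes can reach them. Lysosomal acid lipase (Lipa) splits cholesterol esters and triglycerides, Npc2 picks up the freed cholesterol inside the lysosome, and the membrane protein Npc1 passes it out. Hexa encodes the alpha subunit of beta-hexosaminidase, which trims the ganglioside GM2 with the help of the activator Gm2a. Gla encodes alpha-galactosidase A, which removes the end galactose of globotriaosylceramide, and Neu1 encodes a sialidase that is held stable by Ctsa. Human loss of these genes causes lysosomal storage diseases, among them Niemann-Pick type C (NPC1 and NPC2), Tay-Sachs (HEXA) and Fabry disease (GLA).

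Many lysosomal genes carry a promoter element around the E-box core CACGTG, which transcription factors of the Tfeb, Tfe3 and Mitf family bind. Promoter windows of 300 bases around the RefSeq start site (250 before and 50 after, build GRCm38.p6) were found for 6 of the 7 genes. They are shown for Gla, whose level differed 6.89-fold among macrophage-like clusters, for Psap, which had the most UMIs, and for Lipa, which was highest in an epithelial-like cluster. Each is given 5′ to 3′ on the gene's strand, and capitals mark the matches TCACGTGA and TCATGTGA.
Gla, chrX:134600956-134601255, minus strand: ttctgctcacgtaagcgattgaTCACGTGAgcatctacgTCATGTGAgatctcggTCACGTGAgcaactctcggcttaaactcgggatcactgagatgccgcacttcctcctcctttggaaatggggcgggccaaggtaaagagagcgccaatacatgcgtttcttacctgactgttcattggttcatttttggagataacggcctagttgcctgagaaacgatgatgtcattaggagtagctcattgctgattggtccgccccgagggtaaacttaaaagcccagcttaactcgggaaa
Psap, chr10:60277378-60277677, plus strand: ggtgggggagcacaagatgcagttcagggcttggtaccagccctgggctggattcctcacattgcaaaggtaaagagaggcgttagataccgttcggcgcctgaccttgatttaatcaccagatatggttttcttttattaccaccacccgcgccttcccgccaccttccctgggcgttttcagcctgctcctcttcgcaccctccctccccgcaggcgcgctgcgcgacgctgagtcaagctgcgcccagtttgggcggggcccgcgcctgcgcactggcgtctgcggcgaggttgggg
Lipa, chr19:34527425-34527724, minus strand: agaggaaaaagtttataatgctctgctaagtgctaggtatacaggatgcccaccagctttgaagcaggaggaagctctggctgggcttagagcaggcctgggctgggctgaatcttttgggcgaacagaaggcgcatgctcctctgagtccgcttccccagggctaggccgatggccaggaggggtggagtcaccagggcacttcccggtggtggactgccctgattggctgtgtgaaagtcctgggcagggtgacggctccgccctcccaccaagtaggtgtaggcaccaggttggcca
The Gla window held 2 copies of TCACGTGA, with first bases at -228 and -195 from the start site, and 1 TCATGTGA at -211, the letters of the M-box to which Mitf is known to bind. Each TCACGTGA contains CACGTG. The windows of Psap, Lipa, Npc2, Hexa and Neu1 held none of the letters searched on either strand (CACGTG, TCACGTGA, that motif with G before and C after it, and TCATGTGA). Of all 32851 windows in the table, 0.974% held TCACGTGA, 19 (0.0578%) held it 2 or more times, 7.15% held CACGTG and 0.986% held TCATGTGA, and 0.326% held TCACGTGA with both flanking letters. These are matches of letters, and no binding was measured here.

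Macrophage-like nuclei had 3.63 times the summed level of the 7 genes found in epithelial-like nuclei, at 2842 and 782 CPM (95% interval of the ratio 3.47 to 3.80). The ratio was 3.37 within well 1 and 8.1 within well 2, where the 27 epithelial-like nuclei were all of cluster 12. Psap made up 68.7% of the macrophage-like sum, and without it the other 6 genes were at 891 CPM in macrophage-like nuclei against 318 CPM in epithelial-like nuclei, a ratio of 2.8 (2.60 to 3.01). At 2-fold or more, 5 of the 7 genes were higher in macrophage-like nuclei, beside 16.1% of the 10540 genes with at least 50 UMIs in the classes compared. None of the 7 was 2-fold lower, beside 26.5% of those genes. The median log2 ratio of macrophage-like over epithelial-like nuclei was 2 for the 7 genes and -0.33 for all genes tested. Fewer molecules per nucleus and fewer nuclei with the transcript cannot be told apart in such sums.

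**Figure D1:**
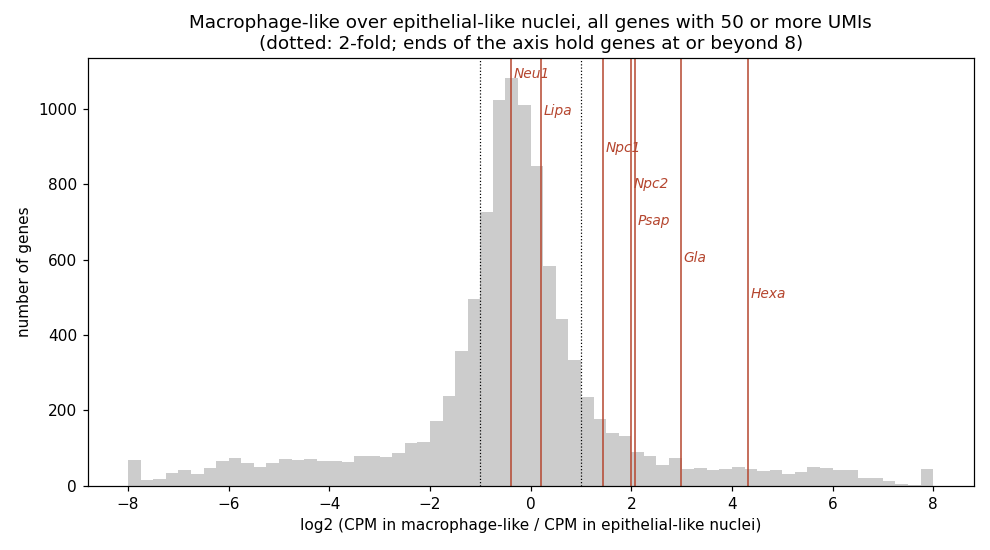
The histogram counts genes by their log2 ratio of CPM in macrophage-like over epithelial-like nuclei (genes with 50 or more UMIs), with a line for each of the 7 genes and dotted lines at 2-fold. Neu1 and Lipa lie within the bulk of genes, and Npc1, Npc2, Psap, Gla and Hexa lie to the right of 2-fold, with Hexa farthest at 4.32.

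Among the carriers, Psap stood at 1951 CPM in macrophage-like nuclei (1905 to 1998) and 464 CPM in epithelial-like nuclei (440 to 489), a ratio of 4.21 (3.97 to 4.46). Npc2 stood at 229 CPM in macrophage-like nuclei and 57.2 CPM in epithelial-like nuclei, a ratio of 4 (3.39 to 4.74). Both genes were higher in every one of the 7 macrophage-like clusters than in any epithelial-like cluster. For Npc2 the lowest macrophage-like cluster, cycling cluster 14, stood at 148 CPM (78.6 to 253), against 67.8 CPM (52.2 to 86.5) in epithelial-like cluster 11, and these intervals overlapped. Npc1 was at 169 CPM in macrophage-like nuclei and 62.5 CPM in epithelial-like nuclei, a ratio of 2.71 (2.30 to 3.20), and its lowest macrophage-like cluster lay among the epithelial-like ones. In well 2 the ratios were larger, at 7.48 for Psap (5.75 to 9.92), 10.8 for Npc2 (4.55 to 33.5) and 6.06 for Npc1 (3.02 to 14.2), on 57, 5 and 8 epithelial-like UMIs. In well 1 they were 3.96, 3.61 and 2.25. All 27 epithelial-like nuclei of well 2 belonged to cluster 12, the epithelial-like cluster with the lowest level of each of these genes. In well 1, cluster 12 had Psap at 326 CPM (228 to 451), Npc2 at 27.2 CPM (5.6 to 79.4) and Npc1 at 63.4 CPM (25.5 to 131). The well 2 ratios are thus over cluster 12 only. Thinned to 1000 UMIs per nucleus, a Psap UMI was present in 76.4% of macrophage-like nuclei (73.6 to 78.9) and in 35.6% of epithelial-like nuclei (29.5 to 42). Before thinning, the shares were 91.7% at a median of 2878 UMIs in macrophage-like nuclei and 79.4% at a median of 5649 UMIs in epithelial-like nuclei. For comparison, a UMI of any of the 11 macrophage markers was present after thinning in 95.9% of 1036 macrophage-like nuclei and 30.5% of 239 epithelial-like nuclei. That share counts any of 11 genes, while the Psap share counts 1.

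The enzymes split. Hexa had 835 UMIs (236 CPM, 220 to 253) in macrophage-like nuclei and 36 UMIs (11.8 CPM, 8.29 to 16.4) in epithelial-like nuclei, a ratio of 19.9 (14.3 to 28.7). Gla was at 70.4 CPM (62 to 79.7) in macrophage-like nuclei and 8.88 CPM (5.85 to 12.9) in epithelial-like nuclei, a ratio of 7.93 (5.32 to 12.3). Lipa had close levels, 148 CPM in macrophage-like nuclei and 128 CPM in epithelial-like nuclei, with a ratio of 1.16 (1.01 to 1.32). Neu1 was lower in macrophage-like nuclei, at 37.9 CPM against 49.7 CPM in epithelial-like nuclei, a ratio of 0.763 (0.60 to 0.97), under the 2-fold mark. Neither direction held under every alternative. Lipa gave 0.678 with another clustering seed, which left 101 epithelial-like nuclei, and 5.14 in well 2. Neu1 gave 3.69 in well 2, on 2 epithelial-like UMIs, and 1.23 when each nucleus counted equally. The epithelial-like nuclei of well 2 were all of cluster 12.

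Free RNA in droplets can put macrophage transcripts into other nuclei, so these levels were set beside those of macrophage markers. The marker list in epithelial-like nuclei was 7.96% of its macrophage-like level. It was uneven there, with 2 of its 11 genes detected in cluster 13 (607 CPM in sum) and 9 in cluster 12 (423 CPM). The list is therefore no clean measure of free RNA, and whether these nuclei make some of its genes was not tested. Hexa was under that at 5.01%, and Gla was at 12.6%. Psap (23.8%), Npc2 (25%), Npc1 (36.9%), Lipa (86.4%) and Neu1 (131%) stood further above it. The part of free RNA in these levels was not tested. Hexa was thinly spread in epithelial-like nuclei, with 0 UMIs in the 47 nuclei of cluster 12, where its interval reached 11.9 CPM.

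**Figure D2:**
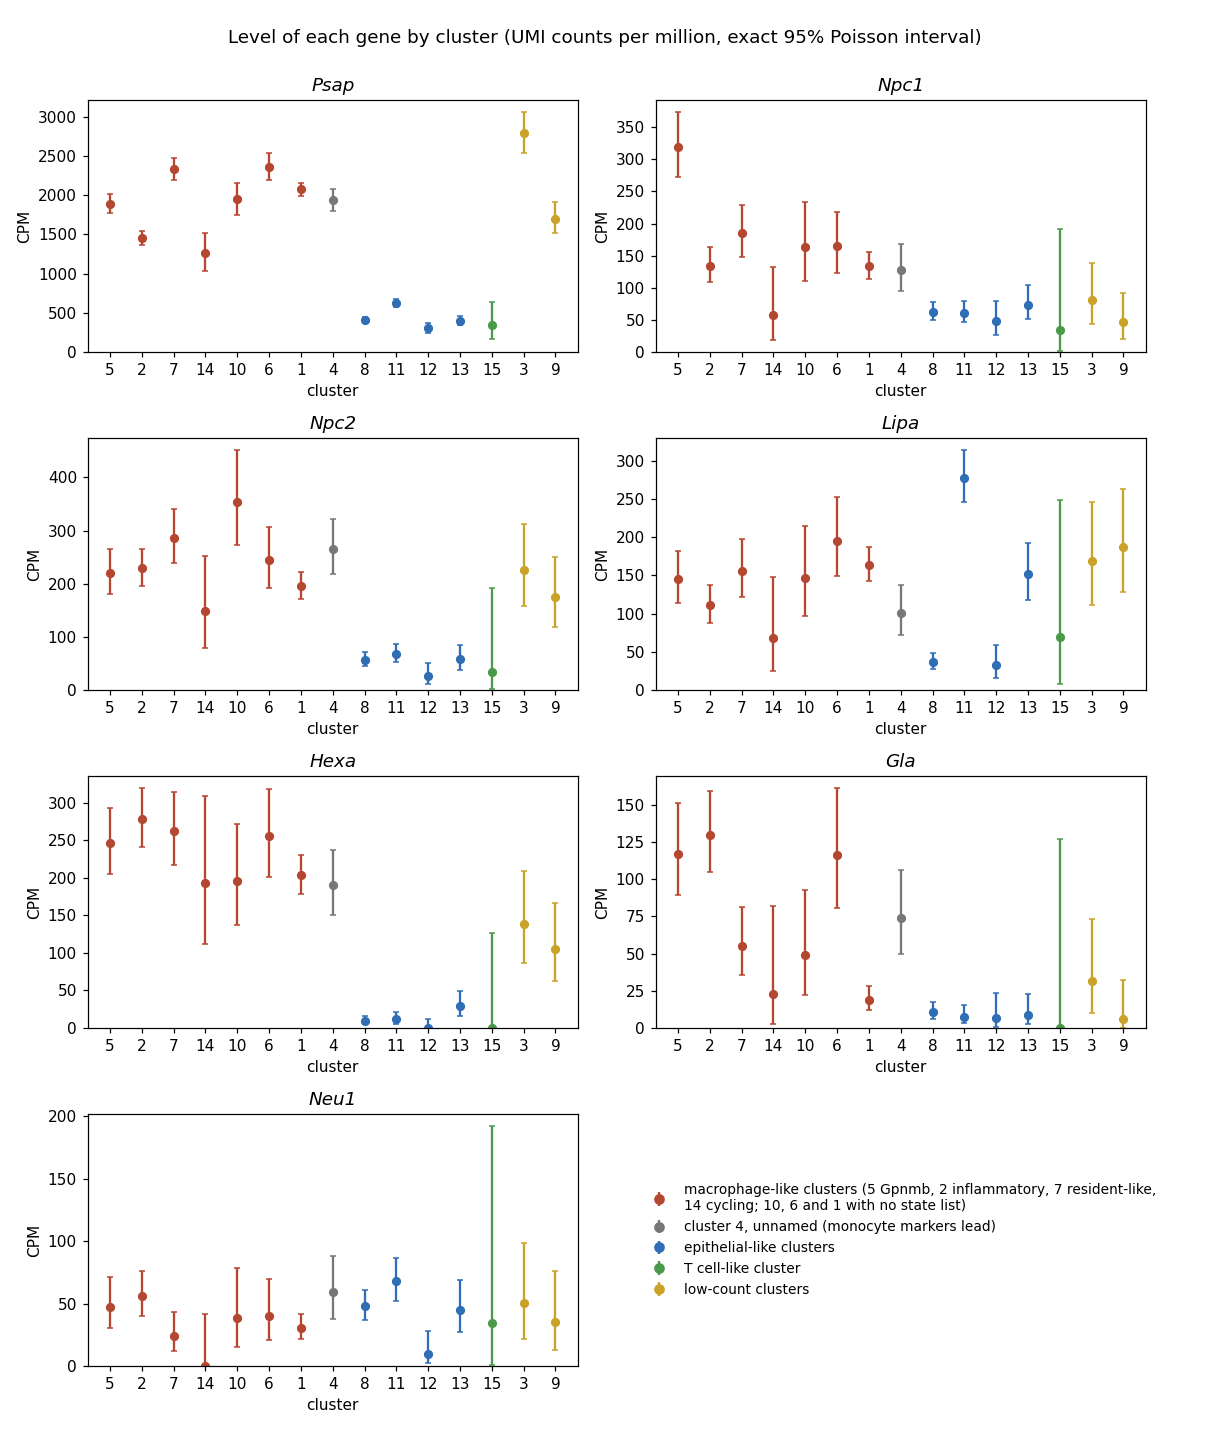
Each panel plots the level of 1 gene (CPM, vertical axis) in each of the 15 clusters (horizontal axis), with exact 95% Poisson intervals and colours for the class of the cluster. Hexa separates macrophage-like from epithelial-like clusters, Gla differs widely among macrophage-like clusters, Npc1 peaks in cluster 5 at 319 CPM, and Lipa peaks in epithelial-like cluster 11 at 278 CPM.

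Of the 5 genes with 50 or more UMIs in epithelial-like nuclei, Lipa had the largest ratio between epithelial-like clusters. It reached 278 CPM (246 to 314) in cluster 11, 152 CPM (118 to 193) in cluster 13, 36.6 CPM (27 to 48.3) in cluster 8 and 32.3 CPM (15.5 to 59.4) in cluster 12. Cluster 11 was thus 4.6-fold over the other epithelial-like nuclei (3.71 to 5.73) and above the highest macrophage-like cluster, cluster 6, at 195 CPM (149 to 252), with intervals that overlapped. Of the 54 nuclei of cluster 11, all in well 1, 29 had a Lipa UMI, and a single nucleus had 42 of the 263. After thinning, Lipa was seen in 20.8% of nuclei (10.8 to 34.1) in cluster 11 and 2.73% (0.566 to 7.76) in cluster 8. In cluster 8, none of the 5 genes with 50 or more UMIs was 2-fold higher than in other epithelial-like nuclei, beside 5.11% of genes tested, and Lipa alone was 2-fold lower (0.182-fold, 0.132 to 0.246), beside 5.97%. Lipa was also the only 1 of the 5 genes with enough UMIs that was 2-fold higher in cluster 11 than in other epithelial-like nuclei, beside 6.68% of genes tested, and none was 2-fold lower, beside 11%. Psap (625 against 391 CPM in other epithelial-like nuclei) and Neu1 (67.8 against 41.5 CPM) were also higher there, at 1.60-fold (1.43 to 1.78) and 1.63-fold (1.16 to 2.28).

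In epithelial-like cluster 12, which holds all 27 epithelial-like nuclei of well 2 and 20 of well 1, the 7 genes were lower, at 423 CPM against 823 CPM in other epithelial-like nuclei (0.515, 0.428 to 0.614). Of 5 genes with enough UMIs, 3 were at or under 0.5-fold there (Npc2, Lipa and Neu1), beside 15.1% of genes tested, and none was 2-fold higher, beside 9.67%. RNA of ribosomal proteins summed to 31725 CPM in cluster 12 (12619 CPM in cluster 8), and its part in the result was not tested. Epithelial-like cluster 13 had the highest epithelial-like Hexa level, 29.1 CPM (15.5 to 49.8), on 13 UMIs. None of the 5 genes with 50 or more UMIs reached 2-fold either way in cluster 13, beside 2.78% higher and 10.1% lower of genes tested.

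Wider lysosomal genes were read from 48 genes in 5 groups. Of the 44 with enough UMIs, 28 were at least 2-fold higher and 4 at least 2-fold lower in macrophage-like than in epithelial-like nuclei, beside 16.1% higher and 26.5% lower of all genes tested. The median log2 ratio was 1.19 for these 44 genes and -0.33 for all genes. By group, those at least 2-fold higher were 5 of 7 sphingolipid genes, 5 of 8 genes of cholesterol, neutral lipid and phospholipid handling, 11 of 18 glycan genes, 2 of 6 genes of mannose 6-phosphate routing and 5 of 5 regulators. Highest were Pld4, a phospholipase D family exonuclease of lysosomes (234 against 2.63 CPM, 88.9-fold, 44.9 to 207), and Tfec, a macrophage-restricted relative of Tfeb (24 against 0.658 CPM, 36.6-fold, 9.81 to 307). Mitf (10.6-fold), the beta-glucuronidase gene Gusb (9.90-fold) and the lysosomal phospholipase gene Pla2g15 (9.32-fold) came next. A partner of Neu1 and genes of routing are given too, chosen after their values were seen. Ctsa, the partner of Neu1, was at 139 CPM in macrophage-like nuclei and 24.7 CPM in epithelial-like nuclei (5.65-fold), so Neu1 did not follow its partner in these levels.

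The lowest ratios belonged to a pair of sorting receptors. Sort1, which encodes sortilin, a receptor that carries prosaposin to lysosomes, was at 12.7 CPM in macrophage-like nuclei and 123 CPM in epithelial-like nuclei (0.104-fold, 0.0744 to 0.142). Igf2r, which encodes the large mannose 6-phosphate receptor, was at 20.9 CPM in macrophage-like nuclei and 127 CPM in epithelial-like nuclei (0.164-fold, 0.126 to 0.211). Hyal1 (0.319-fold), Arsb (0.453-fold) and Gaa (0.54-fold) followed, genes of a hyaluronidase, a sulfatase and acid alpha-glucosidase. Gnptab, whose product adds the mannose 6-phosphate tag, went the other way at 4.7-fold, as did Nagpa, whose product uncovers it, at 4.01-fold. The smaller receptor gene M6pr was at 1.54-fold. Smpd1, Arsa, Idua and Hyal2 had too few UMIs. CACGTG was found in the promoter windows of 12 of the 38 genes of the list that matched the table (31.6%), beside 8.09% of 27025 genes. TCACGTGA was in Cln3, Ctsa, Gnptg, Igf2r and Mcoln1 (13.2%), beside 1.12% of all genes. With both flanking letters it was in Cln3 and Igf2r (5.26%, beside 0.37%), and TCATGTGA was in Ppt1 and Igf2r (5.26%, beside 1.15%).

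**Figure D3:**
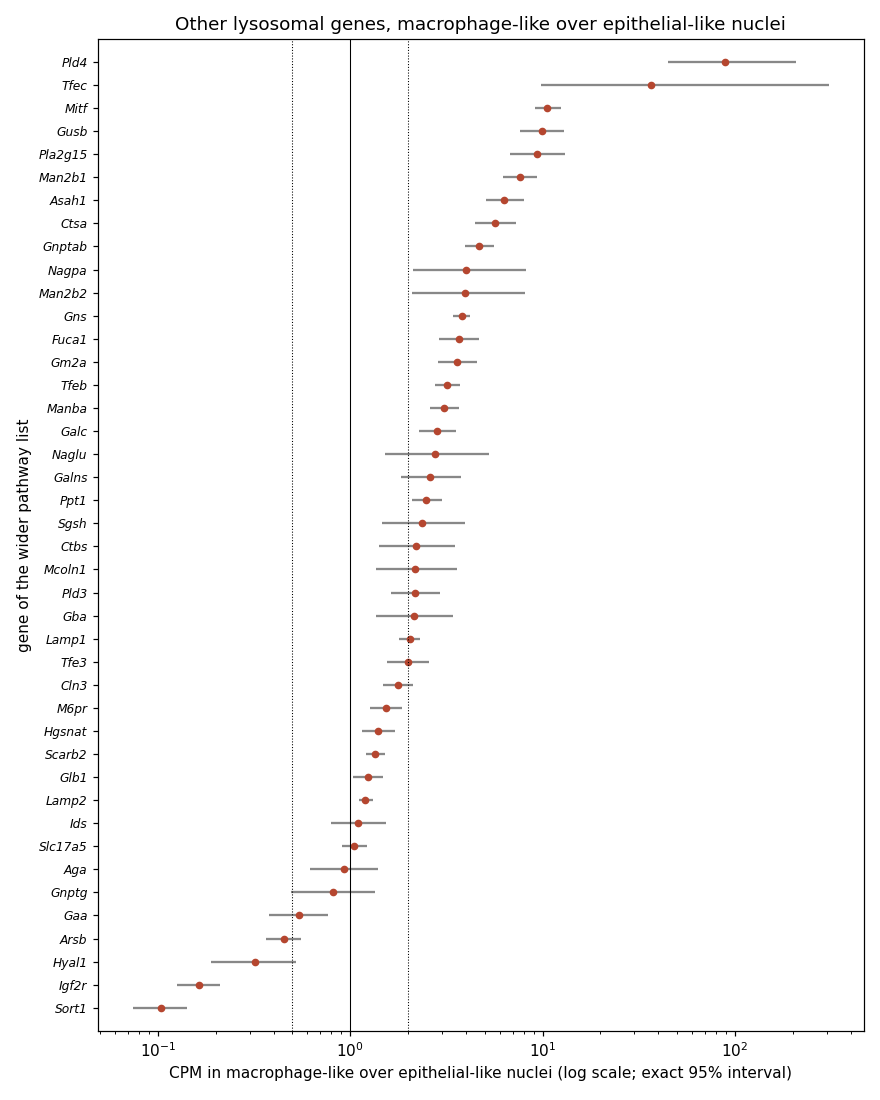
Points give the ratio of CPM in macrophage-like over epithelial-like nuclei (log axis) for 42 of the 44 other lysosomal genes with enough UMIs, with exact 95% intervals and dotted lines at 2-fold either way. Pld4, Tfec, Mitf, Gusb and Pla2g15 stand at the top, and Igf2r and Sort1 at the bottom.

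Among the 7 macrophage-like clusters the summed level of the 7 genes lay between 1749 CPM in cycling cluster 14 and 3376 CPM in cluster 6. Some single genes varied more. From the lowest cluster to the highest, the ratio was 1.44 for Hexa (0.876 to 2.52), 1.87 for Psap (1.53 to 2.31) and 2.4 for Npc2 (1.31 to 4.74). It was 2.86 for Lipa (1.24 to 8.11), 5.62 for Npc1 (2.36 to 17.6) and 6.89 for Gla (4.37 to 11.3). The intervals do not cover the picking of the 2 ends from 7 clusters. The low end was cycling cluster 14 (20 nuclei) for all of these but Gla, on 5 UMIs for Npc1 and 6 for Lipa. Neu1 had 0 UMIs in cluster 14, with an interval up to 41.9 CPM, and 56.1 CPM (40.3 to 76.1) in cluster 2, its highest. These intervals overlapped.

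Gla differed widely among macrophage-like clusters. It stood at 130 CPM (105 to 159) in inflammatory cluster 2, 117 CPM (89.1 to 151) in Gpnmb cluster 5 and 116 CPM (80.6 to 161) in cluster 6. These were followed by 55.1 CPM (35.6 to 81.3) in resident-like cluster 7, 49 CPM (22.4 to 93) in cluster 10, 22.7 CPM (2.75 to 82.1) in cycling cluster 14 and 18.9 CPM (12.1 to 28.1) in cluster 1. Clusters 2, 5 and 6 could not be told apart by their intervals, and the intervals of clusters 2 and 5 lay above those of clusters 7 and 1. Unnamed cluster 4 was at 73.9 CPM. Over cluster 1, the largest cluster, Gla was 6.89-fold in cluster 2 (4.37 to 11.3), 6.14-fold in cluster 6 (3.55 to 10.8) and 6.21-fold in cluster 5 (3.80 to 10.4).

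Within well 1 alone, which holds nearly all nuclei of clusters 1, 2 and 6, Gla was 6.84-fold in cluster 2 over cluster 1 (4.33 to 11.2) and 6.25-fold in cluster 6 over cluster 1 (3.62 to 11). Clusters 1, 2 and 6 held 4, 3 and 3 nuclei of well 2, too few for values of that well. For cluster 5 the well 1 value was 2.68 (0.895 to 6.72), on 6 UMIs. Gla was the only 1 of the 7 genes at least 2-fold higher in cluster 2 than in cluster 1, beside 8.16% of genes tested, and the only 1 in cluster 6 over cluster 1, beside 3.58%. In cluster 5 over cluster 1 it was Gla and Npc1 (2.39-fold, 1.92 to 2.98), beside 9.14%. None of the 7 was 2-fold lower in these comparisons with cluster 1, beside 15.5% of genes tested for cluster 2, 5.77% for cluster 6 and 9.03% for cluster 5. After thinning, a Gla UMI was seen in 10.3% of nuclei of cluster 2 (6.74 to 15) and 1.64% of cluster 1 (0.606 to 3.54), beside 1.26% of epithelial-like nuclei (0.26 to 3.62). In summed counts, cluster 1 stood at 18.9 CPM (12.1 to 28.1) and epithelial-like nuclei at 8.88 CPM (5.85 to 12.9).

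The clusters high in Gla were also higher in immediate early genes, which can switch on during tissue handling. That list of 10 genes summed to 11473 CPM in cluster 2, 4815 CPM in cluster 6 and 3905 CPM in cluster 5, against 948 CPM in cluster 1. All 10 genes of the list were detected in each of these clusters. Cluster 14, with 4919 CPM of the list and Gla at 22.7 CPM on 2 UMIs (2.75 to 82.1), did not follow this order in its point value. Unnamed cluster 4 had 5955 CPM of the list and Gla at 73.9 CPM (49.9 to 106), an interval that overlapped those of clusters 5 and 6. The part of tissue handling in the level of Gla was not tested.

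Other genes of sphingolipid breakdown, singled out after their values were seen, had other patterns. Asah1, which encodes acid ceramidase, was at 0.557-fold in cluster 2 (0.438 to 0.701) and 1.5-fold in cluster 1 (1.28 to 1.75), each over the other macrophage-like nuclei. Gm2a was at 0.561-fold in cluster 2 (0.407 to 0.759) and 1.27-fold in cluster 1 (1.03 to 1.56). These 2 genes thus ran opposite to Gla between clusters 2 and 1. Of the 40 genes of the wider list tested, 0 were 2-fold higher and 7 lower in cluster 2 than in other macrophage-like nuclei, beside 5.01% and 16.9% of all genes. The median log2 ratio was -0.44 for these 40 genes and -0.41 for all genes tested. Igf2r (0.162-fold), Pld3 (0.244-fold), Arsb, Man2b2 and Nagpa were lowest, and Pla2g15 (1.91-fold, 1.57 to 2.33), Gaa, Gusb (1.40-fold) and Hgsnat among the highest.

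Of the 7 genes, only Gla was 2-fold higher in cluster 2 than in other macrophage-like nuclei, at 2.37-fold (1.81 to 3.08), beside 5.01% of genes tested, and none was 2-fold lower, beside 16.9%. Neu1 was at 1.69-fold (1.14 to 2.47) and Hexa at 1.23-fold (1.05 to 1.45). Psap was lower, at 1452 CPM against 2081 CPM in other macrophage-like nuclei (0.698-fold, 0.653 to 0.745), and so were Lipa (0.70-fold, 0.546 to 0.889) and Npc1 (0.752-fold, 0.599 to 0.936). Their log2 ratios of -0.52, -0.51 and -0.41 were near the median of -0.41 for all genes tested, so these decreases are not particular to the 3 genes. Npc2 was level at 0.998-fold (0.837 to 1.19). In well 1 alone the Gla ratio was 3.36 (2.45 to 4.62), and that of Npc1 was 0.904 with an interval that spans 1 (0.711 to 1.14).

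**Figure D4:**
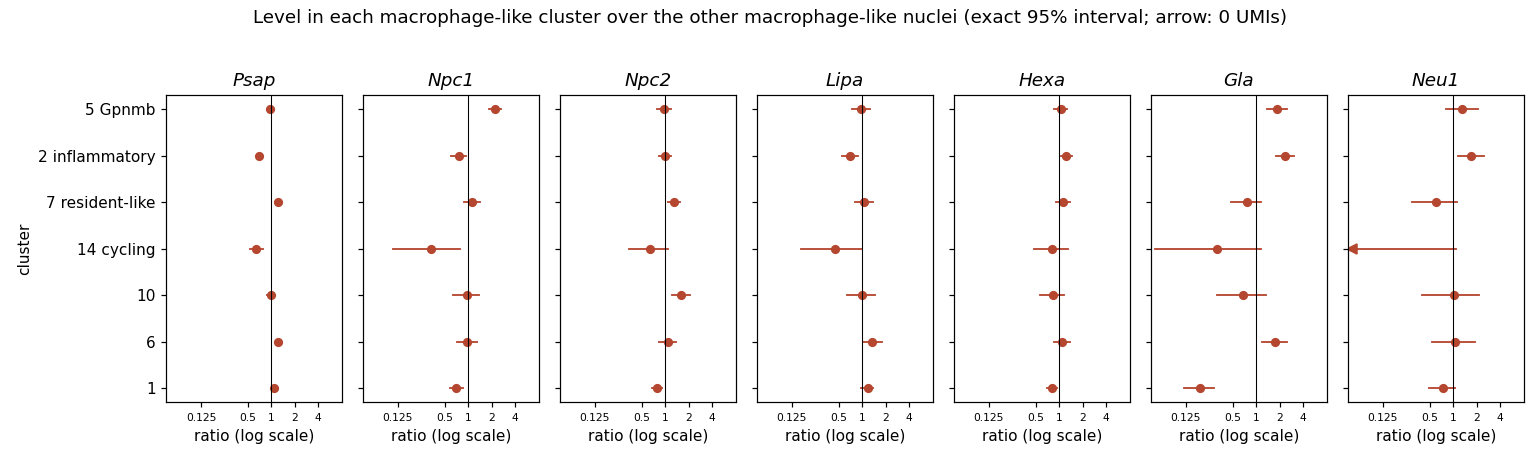
Points give the level of each gene in 1 macrophage-like cluster over the other macrophage-like nuclei (log axis, 1 panel per gene, clusters down the page), with exact 95% intervals. Npc1 stands at 2.22-fold in cluster 5, Gla at 2.37-fold in cluster 2 and 0.19-fold in cluster 1, the Hexa points lie between 0.80 and 1.23, and Psap is at 0.698-fold in cluster 2 and 0.64-fold in cluster 14.

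Npc1, the cholesterol exporter gene, set Gpnmb cluster 5 apart. It was at 319 CPM (272 to 373) in cluster 5 and 144 CPM (131 to 158) in other macrophage-like nuclei, a ratio of 2.22 (1.84 to 2.66). The next cluster down, resident-like cluster 7, was at 185 CPM (148 to 229), with an interval below that of cluster 5. The Npc1 ratio was 2.23 (1.54 to 3.15) within well 1 and 1.78 (1.35 to 2.36) within well 2, the same direction in both. The sum of the 7 genes did not set cluster 5 apart, at 2988 CPM against 2818 CPM in other macrophage-like nuclei (1.06-fold, 1 to 1.12). Of the 7 genes, Npc1 alone was 2-fold higher, beside 5.76% of genes tested, and none was 2-fold lower, beside 8.46%.

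Ratios of other genes in cluster 5 depended on the well, and so did the nuclei they were set against. In well 2, 115 of the 136 other macrophage-like nuclei were of resident-like cluster 7, which had 2 nuclei in well 1. Within cluster 5 itself, in wells 1 and 2, Psap was at 1861 and 1903 CPM, Neu1 at 25.4 and 54.4 CPM, Gla at 50.8 and 137 CPM and Lipa at 305 and 95.9 CPM. Gla was 1.87-fold over other macrophage-like nuclei in both wells together (1.37 to 2.51), 0.792-fold in well 1 (0.286 to 1.76) and 2.48-fold in well 2 (1.54 to 4.07). Lipa was 0.971-fold together, 2.06-fold in well 1 (1.42 to 2.90) and 0.621-fold in well 2 (0.408 to 0.93), in opposite directions. Psap was 0.965-fold together (0.901 to 1.03), 0.986-fold in well 1 (0.857 to 1.13) and 0.818-fold in well 2 (0.745 to 0.898), where its interval lay below 1. Neu1 was 1.31-fold together (0.807 to 2.06), 0.654-fold in well 1 on 3 UMIs (0.133 to 1.97) and 2.29-fold in well 2 (1.08 to 5.11). For Npc2 (0.957-fold) and Hexa (1.05-fold) the intervals spanned 1 together and in each well.

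Cluster 5 itself was mixed, which was seen after its values were known. Of its 148 nuclei, 32 had a Gpnmb UMI, 29 of them in well 2, and the 32 well 1 nuclei without one were high in the elastase gene Mmp12, at 2584 CPM against 133 CPM in cluster 1 of the same well. Nuclei of cluster 5 with a Gpnmb UMI had Gla at 215 CPM and those without at 74.2 CPM (2.9-fold, 1.68 to 5.05). Npc1 was at 456 and 260 CPM in nuclei with and without one (1.76-fold, 1.27 to 2.42), Npc2 at 326 and 174 CPM (1.87-fold, 1.26 to 2.77) and Hexa at 326 and 211 CPM (1.54-fold, 1.06 to 2.24). Lipa went the other way, at 84.7 CPM with a Gpnmb UMI and 171 CPM without (0.495-fold, 0.249 to 0.911). Depth differed too, with a median of 4496 UMIs in nuclei with a Gpnmb UMI and 2458 in those without, and its part was not tested.

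Within well 2 alone, nuclei with a Gpnmb UMI kept higher levels of Gla (231 against 82.3 CPM in those without, 2.81-fold, 1.56 to 5.16), Npc1 (476 against 235 CPM, 2.03-fold), Npc2 (329 against 181 CPM, 1.82-fold) and Hexa (350 against 226 CPM, 1.55-fold). Lipa was at 77 CPM with a Gpnmb UMI and 107 CPM without in that well (0.719-fold, 0.321 to 1.51), an interval that spans 1. The high Lipa level belonged to the Mmp12-high nuclei of well 1, at 316 CPM (219 to 442), where Npc1 was also at 316 CPM and Gla at 55.8 CPM (20.5 to 121). So Npc1 was above its cluster 1 level of 134 CPM in each of these 3 sets, but 2 of them are of well 2, where cluster 1 had 4 nuclei. Other macrophage-like nuclei of well 2 had Npc1 at 182 CPM, inside the interval of the well 2 nuclei without a Gpnmb UMI (178 to 304). The 3 well 1 nuclei with a Gpnmb UMI had Npc1 at 188 CPM on 2 UMIs, with an interval (22.8 to 679) that spans the cluster 1 level.

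**Figure D5:**
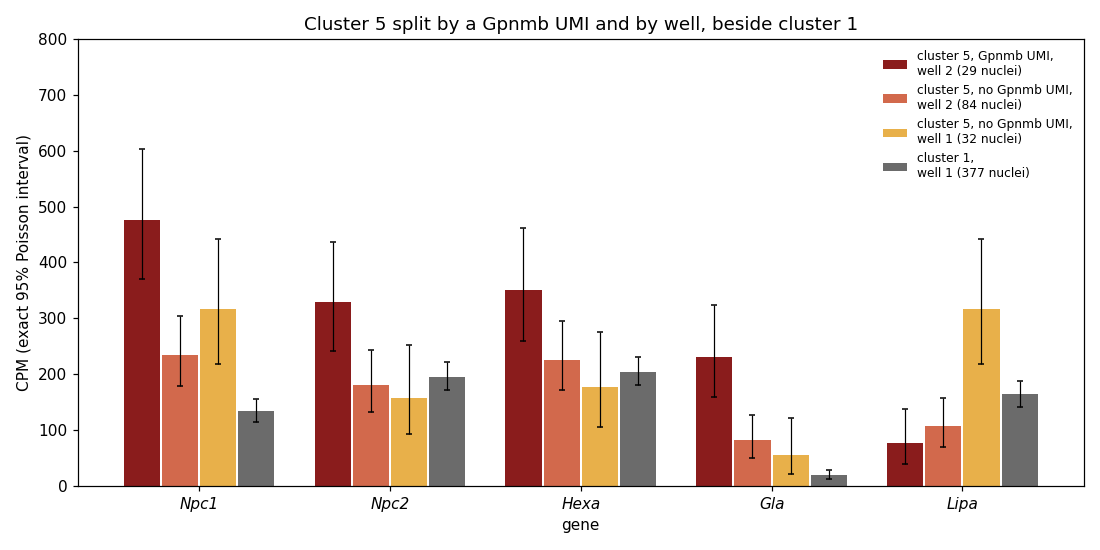
Bars give the level of 5 genes (CPM, with exact 95% Poisson intervals) in nuclei of cluster 5 with and without a Gpnmb UMI, by well, and in cluster 1 of well 1. Gla is highest in nuclei with a Gpnmb UMI (231 CPM), Lipa in the well 1 nuclei without one (316 CPM), and Npc1 exceeds its cluster 1 level of 134 CPM in the 3 sets of cluster 5 drawn. The 3 well 1 nuclei with a Gpnmb UMI are not drawn.

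Of the wider list, Igf2r had the highest ratio in cluster 5, at 99.2 CPM against 7.92 CPM in other macrophage-like nuclei (12.5-fold, 7.56 to 21.3), though it was low in macrophage-like nuclei as a class. Of the 50 Igf2r UMIs of cluster 5, 49 were in well 2, in 24 nuclei. Within well 2 it was at 127 CPM (94 to 168) in cluster 5 and 13.9 CPM (5.57 to 28.5) in other macrophage-like nuclei. Epithelial-like nuclei had Igf2r at 127 CPM. In well 2 the 11 epithelial markers summed to 1081 CPM in cluster 5 (980 to 1190), with Epcam, Krt19, Krt7, Elf5 and Esrp1 at 0. They summed to 1013 CPM in the other macrophage-like nuclei of that well (928 to 1105), with Krt19, Krt7 and Elf5 at 0, and to 8012 CPM in its epithelial-like nuclei. The part of epithelial RNA in the Igf2r level was not tested. Gaa (2.11-fold, 1.06 to 3.95), Cln3 (1.95-fold), Galc (1.87-fold), which encodes galactosylceramidase, and Ctsa (1.77-fold, 1.42 to 2.19) came next. Lowest were Ctbs (0.344-fold), Arsb (0.463-fold), Gm2a (0.603-fold), Man2b1 (0.607-fold) and Aga (0.627-fold, 0.195 to 1.57). Over the 40 genes tested, 2 were 2-fold higher and 2 lower, beside 5.76% higher and 8.46% lower of all genes tested, with a median log2 ratio of 0.01 against -0.03 for all genes.

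Resident-like cluster 7 had the second highest sum among macrophage-like clusters, 3304 CPM against 2774 CPM in other macrophage-like nuclei (1.19-fold, 1.13 to 1.26). None of the 7 genes was 2-fold higher or lower there, beside 8.73% and 12.1% of genes tested. Psap was at 2335 CPM against 1894 CPM (1.23-fold, 1.15 to 1.32) and Npc2 at 286 CPM against 220 CPM (1.30-fold, 1.07 to 1.57). Set against the other macrophage-like nuclei of well 2, Psap kept its ratio of 1.23 (1.12 to 1.34), while Npc1 (0.625-fold, 0.47 to 0.828) and Gla (0.442-fold, 0.264 to 0.72) were lower and Lipa higher (1.6-fold, 1.08 to 2.38). In well 2 most of those other nuclei belonged to cluster 5.

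Cluster 10, led by interferon-induced genes, had the highest Npc2 level, 354 CPM (273 to 451), or 1.59-fold over other macrophage-like nuclei (1.22 to 2.06). It was at 344 CPM in well 1 and 400 CPM in well 2, on 52 and 13 UMIs. None of the 7 genes reached 2-fold either way in cluster 10, beside 5.2% higher and 13.5% lower of genes tested, nor in cluster 6, beside 1.4% and 8.62%. In cycling cluster 14 the sum was 0.61-fold that of other macrophage-like nuclei (0.516 to 0.715), and 4 of the 7 genes were at or under 0.5-fold, beside 21.6% of genes tested, on 6 UMIs or fewer each. None was 2-fold higher, beside 10.3%. The best measured of the 7 there was Psap, at 1261 CPM against 1969 CPM (0.64-fold, 0.526 to 0.773). In cluster 1 the sum was level (0.988-fold, 0.948 to 1.03), and Gla, at 0.19-fold (0.119 to 0.29), was the only gene of the 7 under 0.5-fold, beside 8.87% of genes tested. None was 2-fold higher there, beside 3.61%.

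In the low-count nuclei of clusters 3 and 9 the genes diverged. Psap was at 2228 CPM there and 1951 CPM in macrophage-like nuclei (1.14-fold, 1.06 to 1.23). The direction differed between wells, at 1.23-fold in well 1 (1.13 to 1.33) and 0.647-fold in well 2 (0.47 to 0.869). Its level also differed by cluster, at 2793 CPM in cluster 3 (2540 to 3064) and 1702 CPM in cluster 9 (1512 to 1909). Cluster 9 held 9 of the 23 low-count nuclei of well 2 and 68 of 265 in well 1, so well and cluster are mixed in this split. The macrophage markers summed to 4534 CPM in cluster 3 and 1789 CPM in cluster 9, which had Pdgfrb and Col5a2 among its leading genes. Npc1 was at 63.4 CPM in low-count and 169 CPM in macrophage-like nuclei (0.375-fold, 0.23 to 0.578). Gla was at 18.1 CPM in low-count and 70.4 CPM in macrophage-like nuclei (0.257-fold, 0.0935 to 0.568). These 2 genes were the only ones of the 7 under 0.5-fold, beside 19.4% of genes tested, and none was 2-fold higher, beside 19.7%. Hexa was at 0.511-fold, and the intervals of Npc2, Lipa and Neu1 spanned 1. RNA of ribosomal proteins summed to 53890 CPM in cluster 3 (9634 CPM in cluster 1). The epithelial marker list was at 9651 CPM in the low-count nuclei, against 1482 CPM in macrophage-like nuclei, and its part in these ratios was not tested. RNA of cytoplasm and of nuclei cannot be told apart in these barcodes.

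Over all 15 clusters, the genes whose log2 level (CPM plus 10) followed the sum of the 7 most closely, of 6560 with enough UMIs, were the cathepsin gene Ctsz (Pearson r 0.964), the complement gene C1qa (0.946), Cd300c2 (0.944), the lipid receptor gene Trem2 (0.927) and Abhd12 (0.927). Psap and Npc2 followed each other at 0.96, and Npc2 and Hexa at 0.96. Within the 7 macrophage-like clusters these values were 0.61 and 0.23. Over all 15 clusters, r between Neu1 and the other 6 genes lay between 0.03 and 0.47, and within the 7 macrophage-like clusters between 0.50 and 0.79. Those 7 include cycling cluster 14 (20 nuclei), with 0 Neu1 UMIs and the lowest Psap, Npc1, Npc2, Lipa and Hexa levels. Among the others, Neu1 was highest in cluster 2 (56.1 CPM), where Psap was lowest (1452 CPM). Neu1 was lowest in cluster 7 (24.2 CPM), where Psap was at 2335 CPM. Values of r without cluster 14 were not computed. Closest to Npc1 over all 15 clusters was Fnip2 (0.937), which encodes a partner of folliculin, then Serpinb8 and Zfand3. Closest to Hexa were Abhd12 (0.973), the cholesterol esterification gene Soat1 and Rab7b, and closest to Gla were Plekhm2 (0.916), Metrnl and Bach1. Lipa was matched less closely, by Lgals3bp (0.765), Derl1 and Itm2c, and Neu1 by Selenok (0.838), Mtch2 and Stk40. After Ctsz (0.969), C1qa and Npc2 were closest to Psap, and after Psap and Hexa, Cd300c2 was closest to Npc2. These values describe 15 points that share 2 libraries and differ in depth, and the macrophage and epithelial classes set much of them.

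On build GRCm38, Psap lies at chromosome 10, 60277627 to 60302597, Npc1 at chromosome 18, 12189692 to 12236400, Npc2 at chromosome 12, 84754562 to 84773152, and Lipa at chromosome 19, 34492318 to 34527474. Hexa lies at chromosome 9, 59539540 to 59565109, Gla at chromosome X, 134588149 to 134601125, and Neu1 at chromosome 17, 34931253 to 34935953. All 7 are protein-coding. Npc1 overlaps Rmc1 and Gm15956, and Hexa overlaps Tmem202, each on the opposite strand, and how strand entered the counting is not given in the sources used here. The overlapping genes were low: in macrophage-like and epithelial-like nuclei, Rmc1 was at 24.6 and 17.4 CPM, Tmem202 at 4.81 and 0.987 CPM and Gm15956 at 1.41 and 0.329 CPM.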

How the data were processed

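The authors deposited UMI counts per gene and barcode for nuclei of both genotypes in 1 matrix. Reads were processed with Cell Ranger 5.0 and build mm10, per the submitters' processing notes. The matrix names software version 5.0.1, per the file headers. Whether intronic reads were counted is not given in the sources used here; it would change levels of long genes.

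Barcodes with under 500 UMIs, under 300 genes or over 5% mitochondrial UMIs (21) and 5 Scrublet doublets, all in well 2, were removed, a low yield that leaves doublets possible. Counts scaled to 10000 per nucleus, 2000 variable genes, 30 principal components, 15 neighbours and Leiden clustering (resolution 1.0, seed 0) gave the clusters (scanpy 1.11.5 and igraph 0.11.9). A cluster was T cell-like or epithelial-like where that list summed to more CPM than the macrophage list, and macrophage-like otherwise. Low-count, called before epithelial-like, needed median UMIs under 0.5 of that of all nuclei. It also needed ribosomal protein and mitochondrial RNA over 2 times the cluster median. A cluster stayed unnamed where more of its 10 leading genes came from lists of other cell types than from its own. A state was taken where its list reached 0.5 of the highest macrophage-like level and 2 times the median. Markers counted as detected at 5 UMIs and 20 CPM. The resolution and these naming rules were set after several clusterings had been seen, and the genes, lists and motifs were chosen with earlier results of these data known. Levels are CPM of summed counts with Poisson intervals, ratios have conditional binomial intervals, and shares have Clopper-Pearson intervals after thinning to 1000 UMIs. Statistics used scipy 1.17.1 and statsmodels 0.14.6, and the ratio code was tested on simulated data. Likeness used genes with 200 or more UMIs. From the wider list, the 5 highest and 5 lowest ratios are named, except for results not reported here. Of the identifiers, 32158 were found in GENCODE vM21.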

Additional observations from a re-analysis of the deposited data

How the results depend on the processing

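The summed ratio of macrophage-like over epithelial-like nuclei, 3.63, stayed above 3 in all 10 alternatives. It was 3.01 with clustering seed 1, 3.44 at resolution 0.5 with seed 1 (chosen after seeing the data), 3.37 in well 1 alone and 8.1 in well 2 alone. The other alternatives (variable genes with the 7 genes and the wider list, 1000 UMIs as the minimum, a mean over nuclei, scaling without ribosomal protein and mitochondrial genes, resolution 1.5, and leaving out the deepest 5% of nuclei) gave values inside its interval. The summed ratio of cluster 5 over other macrophage-like nuclei, 1.06, was 0.92 in well 2 alone and 1.27 when the nuclei were taken by a Gpnmb UMI (an alternative added after seeing the data, as was the split of cluster 5). Of 285 single-gene ratios over 28 comparisons, 238 lay inside their interval and 47 outside. Gla in cluster 2 over clusters of no state list ranged from 2.53 to 8.06, Npc1 in cluster 5 from 1.78 to 2.98, and Hexa over epithelial-like nuclei from 10.3 to 26.8. With 1000 UMIs as the minimum, 33 nuclei made up the Gpnmb state, and Gla was 3.57-fold and Lipa 0.443-fold over other macrophage-like nuclei. Directions changed for ratios under 2-fold, such as Lipa in macrophage-like over epithelial-like nuclei (0.678 to 5.14), Neu1 there (0.707 to 3.69), and Gla (0.792 to 3.57) and Lipa (0.443 to 2.06) in cluster 5, and for no ratio at or past 2-fold. The causes were not tested. No paired analysis was possible because each genotype has 1 sample and the wells carry no sample name. Depth limits Neu1 and Gla most, with 134 and 249 UMIs in macrophage-like nuclei.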
